A study of Mus musculus with 18 samples.

Results

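The proteasome genes were taken as all mouse gene symbols that start with Psma to Psmg followed by a digit, without pseudogene names. Of 50 such names, 48 were found in at least 1 of the 3 deposited tables, among 13787 genes in all. The table for p53WT leukemia at 10 h held 47 of them, and the tables for p53null leukemia at 10 h and for p53WT leukemia at 72 h held 48 each. The naming rule itself reads gene symbols alone. Among the members were 14 genes of the core particle (7 of the alpha ring and 7 of the beta ring), 17 of the 19S regulatory particle and 2 immunoproteasome subunits, Psmb8 and Psmb10. There were also 7 assembly chaperones, 5 activator genes and the inhibitor gene Psmf1. The immunoproteasome subunit Psmb9 and the testis subunit Psma8 were not analysed here, since the identifiers paired with these names matched no row. The thymus subunit Psmb11 was listed near the lowest level of its tables (1.27 mean CPM, counts scaled to library size, in p53null leukemia and 1.07 at 72 h, in the authors' deposited tables). Psmc3ip fits the naming rule but encodes a recombination factor and no subunit, so it was counted among the members and kept out of every class.

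The cells were mouse acute myeloid leukemia (AML) driven by the MLL/ENL fusion together with Nras, either wild type for p53 (p53WT) or lacking it (p53null), and grown in syngeneic C57BL/6 recipients. Diseased mice were given vehicle or CX-5461, which inhibits RNA polymerase I, the enzyme that makes ribosomal RNA. Marrow was taken 10 h later from both genotypes and 72 h later from p53WT disease alone, and RNA was sequenced from GFP-positive cells after flow sorting. The 18 samples made up 6 groups of 3, and every group carried MLL/ENL and Nras. The labels do not give the age or number of the mice or a batch, so p-values measure the spread between samples, which may be technical. The sample titles at 10 h carry 1 tag for p53WT (Cyc-41) and another for p53null (Cyl-53), with no meaning given, so a difference between genotypes cannot be told apart from a difference between 2 leukemias. In bulk RNA, fewer cells of a type and less RNA per cell cannot be told apart either.

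The proteasome is the large protease that degrades ubiquitin-tagged proteins in the cytosol and nucleus. Its core particle is a barrel of alpha and beta rings whose catalytic beta subunits are PSMB5, PSMB6 and PSMB7, and the 19S regulatory particle at the barrel's end recognizes, unfolds and feeds in the substrate. In blood cells and under interferon, PSMB8, PSMB9 and PSMB10 take the places of the catalytic subunits, and the resulting immunoproteasome, often with the activator PA28 alpha beta, produces peptides for MHC class I.

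Promoter sequences are shown first for 5 members named below, of which 2 fell (Psmb8, Psme1) and 3 rose (Psmd2, Psme4, Psmd9) at 72 h. Each of the 5 holds at least 1 of the motif matches marked here, which most members with a promoter lack. They come from the RefSeq promoter table of build GRCm38.p6, in which 42 of the 50 names had an entry, and each runs from 250 bases before to 50 bases after the gene's annotated start, on the plus strand. Psmb8 lies at chr17:34197945-34198244, Psme1 at chr14:55578244-55578543, Psmd2 at chr16:20651402-20651701, Psme4 at chr11:30771525-30771824 and Psmd9 at chr5:123227940-123228239. Capitals mark matches, on either strand, to a gamma activated site (TTCNNNGAA, of the interferon gamma response), an interferon response element (GAAA, any 2 bases and GAAA again, bound by IRF factors) or the core of an antioxidant response element (TGACNNNGC, bound by NRF1 and NRF2), and no match overlapped another.
Psmb8: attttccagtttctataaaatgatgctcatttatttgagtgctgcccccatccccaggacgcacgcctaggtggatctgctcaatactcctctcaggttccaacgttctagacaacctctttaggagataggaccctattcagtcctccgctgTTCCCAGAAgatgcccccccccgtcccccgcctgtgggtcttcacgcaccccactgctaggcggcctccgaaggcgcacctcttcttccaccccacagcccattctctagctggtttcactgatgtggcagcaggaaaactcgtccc
Psme1: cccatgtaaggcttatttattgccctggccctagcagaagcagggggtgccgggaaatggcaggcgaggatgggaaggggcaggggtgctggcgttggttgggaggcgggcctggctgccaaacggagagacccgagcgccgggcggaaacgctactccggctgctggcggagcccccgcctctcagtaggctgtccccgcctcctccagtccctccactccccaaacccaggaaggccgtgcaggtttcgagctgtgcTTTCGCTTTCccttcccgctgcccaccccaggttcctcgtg
Psmd2: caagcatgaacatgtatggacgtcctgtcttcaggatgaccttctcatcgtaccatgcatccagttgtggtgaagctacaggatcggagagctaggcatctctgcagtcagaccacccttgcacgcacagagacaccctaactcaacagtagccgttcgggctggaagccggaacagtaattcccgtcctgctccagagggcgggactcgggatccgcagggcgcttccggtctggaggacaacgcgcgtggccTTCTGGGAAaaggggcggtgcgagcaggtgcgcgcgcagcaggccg
Psme4: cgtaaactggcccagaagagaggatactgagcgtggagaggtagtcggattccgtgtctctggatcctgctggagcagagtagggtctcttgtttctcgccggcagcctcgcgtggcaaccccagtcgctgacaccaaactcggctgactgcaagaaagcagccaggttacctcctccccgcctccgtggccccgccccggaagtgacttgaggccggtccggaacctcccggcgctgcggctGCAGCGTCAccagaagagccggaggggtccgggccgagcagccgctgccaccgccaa
Psmd9: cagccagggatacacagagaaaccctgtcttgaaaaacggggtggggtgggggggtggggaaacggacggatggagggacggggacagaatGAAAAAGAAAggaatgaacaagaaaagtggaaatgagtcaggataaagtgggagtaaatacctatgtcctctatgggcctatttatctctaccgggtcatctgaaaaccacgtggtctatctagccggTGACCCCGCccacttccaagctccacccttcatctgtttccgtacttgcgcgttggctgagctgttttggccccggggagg

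Psmb8 held TTCCCAGAA at position -97 from the start and Psmd2 held TTCTGGGAA at position 5, both matches to the gamma activated site. Psme1 held an interferon response element on the minus strand at position 10, read as TTTCGCTTTC on the strand printed. Psme4 held the antioxidant core on the minus strand at position -7, read as GCAGCGTCA, and Psmd9 held it as TGACCCCGC at -31 beside the interferon element GAAAAAGAAA at -159. Members were counted by gene, 42 genes with 45 promoters, and the background by promoter, so the shares below are not quite the same measure. Across the 42 members with a promoter, 6 (14.3%) held the antioxidant core, against 12.4% of all 32851 promoters of this length. The interferon element was in 5 of 42 (11.9%, against 3.44%) and the gamma activated site in 3 of 42 (7.14%, against 8.30%). The box CCAAT was in 15 of 42 (35.7%, against 37.4%). Of the members with a promoter, 6 rose and 7 fell at 72 h. The antioxidant core was in 2 of the 6 that rose and 0 of the 7 that fell. The interferon element was in 1 of 6 and 2 of 7, and the gamma activated site in 1 of 6 and 1 of 7. Such a match is a description of the letters and not a bound site.

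Counts per library were available for p53WT AML at 10 h, with 21578685 to 48118513 counts over the genes kept by the authors. For the other comparisons the authors' deposited tables give a mean level and a fold change with its FDR (false discovery rate), and no value per sample. AML markers were present in all 6 counted libraries, with a summed level of 10573 to 13215 CPM for 8 of 8 markers in vehicle and 13312 to 13353 CPM in CX-5461 libraries. Most of that sum came from Mpo (mean 6435 CPM in vehicle, 7776 with CX-5461) and Elane (3696 and 4256 CPM). Ptprc, which encodes CD45, fell by 0.41 on the log2 scale (edgeR adjusted p 0.0344), and Itgam, which encodes CD11b, was at -0.57 (edgeR adjusted p 0.0517, and an FDR of 0.00803 in the authors' deposited table of these libraries). The other 6 AML markers were not called at 10 h, with Cd34 at -0.26 and Hoxa9, Meis1, Mpo, Kit and Elane from 0.02 to 0.27 (edgeR quasi-likelihood). Markers of other marrow cells moved with treatment. At 10 h the summed erythroid markers (12 of 15 measured) were at 630 to 19539 CPM in vehicle and 246 to 451 CPM in CX-5461 libraries, and 7 of 12 fell (edgeR quasi-likelihood test, Benjamini-Hochberg adjusted p under 0.05). Neutrophil markers (10 of 10 measured) were at 7004 to 18963 CPM in vehicle and at 2828 to 3959 CPM in CX-5461 libraries, and 7 of 10 fell in the same test. By the FDR of the authors' deposited table of these libraries, 12 of 12 erythroid and 10 of 10 neutrophil markers fell. Monocyte and macrophage markers (9 of 9) summed to 634 to 836 CPM against 570 to 598 CPM, with 2 of 9 falling in the edgeR test and 5 of 9 by the FDR of the authors' deposited table. B and plasma cell markers (3 of 7) summed to 25.2 to 99.6 CPM against 27.9 to 29.5 CPM, and T and NK cell markers (2 of 7) to 57.4 to 72.7 CPM against 91.7 to 93.1 CPM. Most of the T and NK sum came from Nkg7, which rose (log2 0.51, edgeR adjusted p 0.0323). The T cell marker Cd3d, near the lowest level, went the other way (mean 2.43 CPM in vehicle and 0.70 CPM with CX-5461, log2 -1.79). Cd3d had an edgeR adjusted p of 0.110 and an FDR of 0.00180 in the authors' deposited table. At 72 h the authors' deposited table had 10 of 10 neutrophil markers (median log2 fold change 1.12), 7 of 13 erythroid markers and 5 of 9 monocyte and macrophage markers higher with CX-5461, while the monocyte marker Ccr2 fell by 0.54 (FDR 0.00333). Of 8 AML markers, 4 fell there in the authors' deposited table (Cd34 by 1.23, Kit by 0.87, Elane by 0.53 and Mpo by 0.34 on the log2 scale) and 2 rose (Itgam by 0.93 and Ptprc by 0.21). No marker of these lists was called in p53null AML. The part of these cells in the proteasome values was not tested, beyond the erythroid covariate given below.

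At 10 h in p53WT AML, few proteasome transcripts differed between CX-5461 and vehicle beyond the spread of the libraries. Of 47 members 1 passed the test, Psmd10, a chaperone of 19S assembly that is also known as gankyrin, and it was lower with CX-5461. Over all 12679 genes of the table, 8.10% passed (edgeR quasi-likelihood test, Benjamini-Hochberg adjusted p under 0.05), so the members' share lay below that background. By the FDR of the authors' deposited table of the same libraries, 0 of 47 members passed, against 10.4% of all genes. At an unadjusted p under 0.05, 8 of 47 members passed the same edgeR test, against 31.4% of all genes. Log2 fold changes of the members ran from -0.29 to 0.27 with a median of 0.01, and the median of all genes was 0.00. In 14 members every CX-5461 library was above every vehicle library, against 19.9% of all genes, and in 1 every CX-5461 library was below, against 19.1%. By class, 7 of these 14 were among the 17 regulatory genes, 4 among the 4 chaperones of core assembly, 1 among the 14 core genes, and the others were Psme3 and Psmc3ip.

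In p53null AML at 10 h, 0 of 48 members passed an FDR of 0.05 in the authors' deposited table, where 0.187% of 12861 genes did. At the authors' unadjusted p under 0.05, 0 of 48 members passed in that deposited table, against 6.07% of all genes. Its log2 fold changes for the members ran from -0.24 (Psmb11) to 0.10, with a median of 0.00. No other tool could be run on that table, since it holds no counts.

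At 72 h in p53WT AML 16 members were called. Among the 48 members in the authors' deposited table, 8 rose (16.7%, against 16.1% of all 12838 genes) and 8 fell (16.7%, against 15.1%), so the counts were near the background. Differences between the roles were not tested. The 8 that rose were the core gene Psmb2, the 19S genes Psmc5, Psmd1, Psmd2 and Psmd3, the 19S chaperone Psmd9 and the activators Psme3 and Psme4. The 8 that fell were the immunoproteasome genes Psmb8 and Psmb10, the PA28 alpha beta genes Psme1, Psme2 and Psme2b, the core chaperones Psmg2 and Psmg4, and Psmc3ip. The median log2 fold change was 0.08 over the members and -0.01 over all genes in the authors' deposited table. The sign of the authors' fold changes matched the counts at 10 h (Pearson r 1.0 across genes) and was taken to be the same in the other tables.

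**Figure D1:**
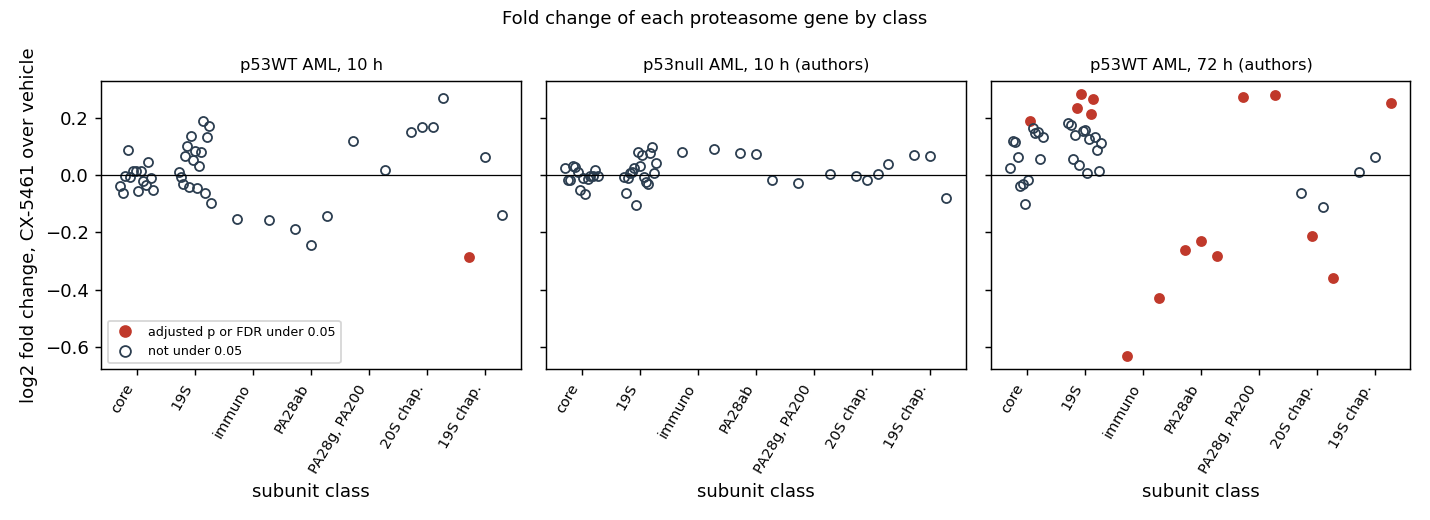
Log2 fold change of CX-5461 over vehicle by subunit class in the 3 comparisons (values fitted here for p53WT AML at 10 h, the authors' values in the others), each point a gene, filled red where the adjusted p or FDR was under 0.05; Psmf1, Psmb11 and Psmc3ip are not plotted. At 72 h the immunoproteasome genes lie at -0.43 and -0.63, and all 17 genes of the 19S particle that fit the naming rule lie above 0. Subunits of other names are not plotted.

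Of the 14 core genes, 1 was called in any of the 3 comparisons. At 10 h in p53WT AML 0 of 14 core genes passed, and the median log2 fold change was -0.01. Without adjustment 0 of 14 passed the edgeR quasi-likelihood test at 0.05, against 31.4% of all genes. Per the authors' deposited tables, 0 of 14 passed in p53null AML, with a median of -0.00, and 1 rose at 72 h, with a median of 0.09 and 10 of 14 positive. Within the alpha ring, the gate of the barrel, Psma4 stood at 139, 138 and 128 CPM in vehicle and 145, 144 and 141 CPM in CX-5461 libraries. Its CX-5461 libraries all exceeded the vehicle libraries, by 0.09 on the log2 scale (SE 0.0504, edgeR adjusted p 0.281), which did not pass. Psma2 had the lowest alpha ring fold change at 10 h (log2 -0.06, edgeR adjusted p 0.534), and its groups overlapped. In the authors' deposited table at 72 h the alpha ring ran from -0.10 (Psma7, FDR 0.335) to 0.12 (Psma2, FDR 0.223), with none called. In p53null AML the authors' deposited table gave Psma7 -0.05 and Psma4 0.03, both at an FDR of 1.0.

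Of the structural beta subunits, Psmb2 was at 105, 109 and 99.8 CPM in vehicle and at 104, 110 and 103 CPM in CX-5461 libraries at 10 h. The ranges overlapped, with a log2 fold change of 0.01 (SE 0.0522, edgeR adjusted p 0.878). At 72 h Psmb2 was the core gene that rose, by 0.19 on the log2 scale at an FDR of 0.0466 in the authors' deposited table, close to the threshold. Psmb1 had the lowest fold change of this class at both times (log2 -0.05 at 10 h, edgeR adjusted p 0.655, and -0.02 at 72 h in the authors' deposited table, FDR 0.894), and neither passed. In p53null AML the structural beta genes ran from -0.07 (Psmb2) to -0.00 (Psmb4) in the authors' deposited table.

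The constitutive catalytic genes differed by less than the spread of their libraries at 10 h. Psmb5, the chymotrypsin-like subunit, was at 82.8, 81.9 and 73.0 CPM in vehicle and 78.7, 83.4 and 83.6 CPM in CX-5461 libraries (log2 0.05, edgeR adjusted p 0.645). Psmb6, the caspase-like subunit, was at 95.3, 102 and 89.6 CPM against 91.6, 93.8 and 99.5 CPM (log2 -0.01, edgeR adjusted p 0.940). Psmb7, the trypsin-like subunit, was at 142, 155 and 135 CPM against 134, 146 and 136 CPM (log2 -0.05, edgeR adjusted p 0.620). The ranges of both groups overlapped in each of the 3 genes. At 72 h the authors' deposited table gave 0.15 for Psmb5 (FDR 0.198), 0.06 for Psmb6 (FDR 0.624) and 0.13 for Psmb7 (FDR 0.156), all positive and none called. Exons of Psmb7 share 34.9% of their bases with the antisense gene Nek6 and those of Psmb5 12.1% with Mir686 in the GRCm38 annotation, and the library kit does not mark strand, so reads there cannot be told apart.

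Vehicle libraries differed among themselves more than CX-5461 libraries did. The SD of CPM was larger in vehicle than in CX-5461 for 14 of 14 core and 16 of 17 regulatory genes, and for 75.5% of all genes. Vehicle 2 was the highest vehicle library in 12 of 14 core genes (39.2% of all genes) and vehicle 3 the lowest in 13 of 14 (34.8% of all genes). Relative to the vehicle mean, the core median was -0.00, 0.10 and -0.09 on the log2 scale in vehicle 1, 2 and 3, and -0.04, 0.02 and -0.00 in the CX-5461 libraries. The summed erythroid markers took the same order in vehicle, with 5709, 19539 and 630 CPM. With the erythroid level as a covariate in edgeR, the core median log2 fold change went from -0.01 to 0.16, and the regulatory median from 0.05 to 0.12. The summed erythroid level of the highest CX-5461 library (451 CPM) was below that of the lowest vehicle library (630 CPM), so the covariate and the treatment are hard to separate.

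**Figure D2:**
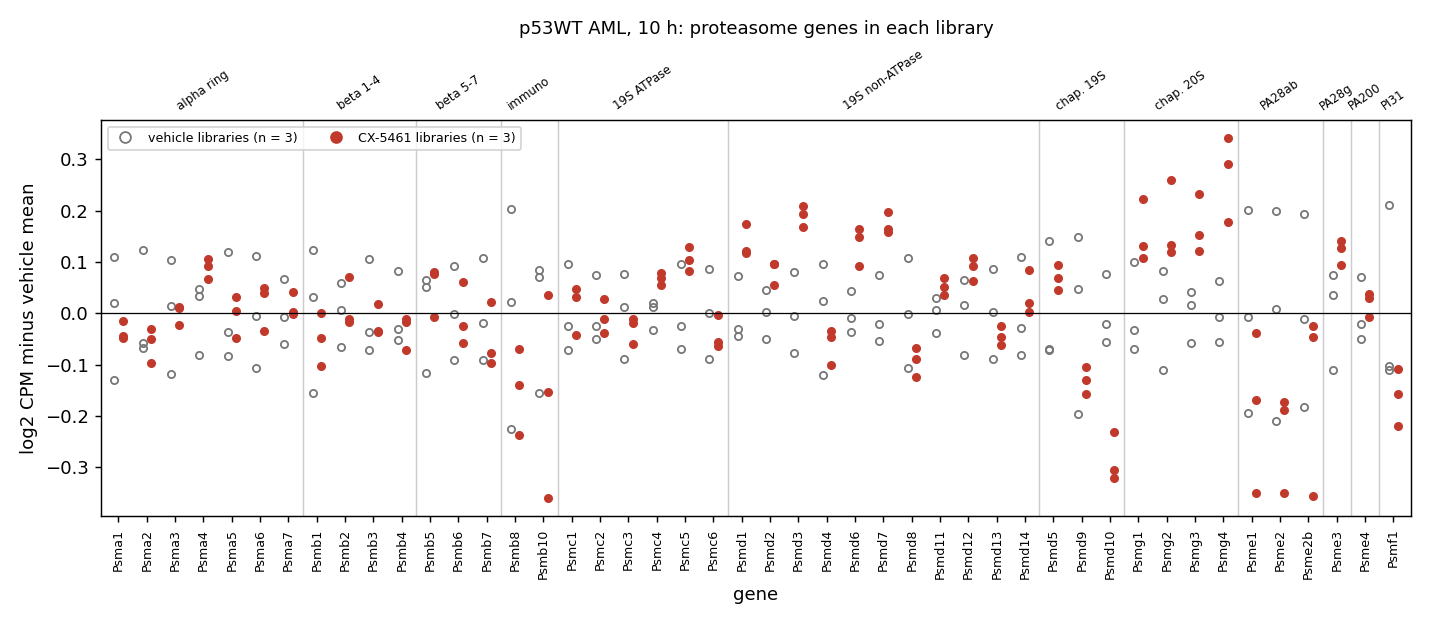
Log2 CPM minus the vehicle mean (vertical axis) for 46 members by class in p53WT AML at 10 h, with open points for the 3 vehicle and red points for the 3 CX-5461 libraries; Psmc3ip is not plotted. The 4 core chaperones Psmg1 to Psmg4 lie higher in all 3 CX-5461 libraries and Psmd10 lies lower.

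Of the 19S regulatory genes, 4 of 17 rose at 72 h in p53WT AML in the authors' deposited table (23.5%, against 16.1% of all genes), and none fell. At 10 h 0 of 17 passed, and the median log2 fold change was 0.05. Of the 17, 4 had an unadjusted p under 0.05, against 31.4% of all genes (edgeR quasi-likelihood). At 72 h all 17 fold changes were positive in the authors' deposited table, from 0.01 to 0.28 with a median of 0.14, where 48.7% of all genes were positive. The naming rule leaves out 19S subunits of other names, of which Sem1 was at -0.09 (FDR 0.436) and Adrm1 at 0.35 (FDR 0.000272) in that deposited table. In p53null AML the authors' deposited table had 0 of 17 called, a median of 0.01 and 10 of 17 positive. The difference between the genotypes or the times was not tested, as it would need counts from every table.

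Psmd3, a structural subunit of the 19S lid, was at 171, 154 and 162 CPM in vehicle (162 ± 8.92, SD, n = 3) and at 187, 185 and 182 CPM in CX-5461 libraries (185 ± 2.64, SD, n = 3). All CX-5461 libraries were above all vehicle libraries, and the log2 difference was 0.19 (SE 0.0528, edgeR quasi-likelihood adjusted p 0.0662), short of the threshold. It passed without vehicle library 1 (edgeR adjusted p 0.0384) and with DESeq2 (adjusted p 0.0268), and the adjusted p ran up to 0.608 over the alternatives. At 72 h Psmd3 rose by 0.27 (FDR 0.00476) in the authors' deposited table, and in p53null AML it was at -0.03.

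Psmd1, the large scaffold of the 19S base, was at 183, 170 and 168 CPM in vehicle and 189, 196 and 188 CPM in CX-5461 libraries at 10 h. Again no library overlapped (log2 0.14, SE 0.0498, edgeR adjusted p 0.117), and the difference did not pass. Its rise at 72 h was 0.28 (FDR 0.00130) in the authors' deposited table, while the same gene had the lowest value of the 19S genes in p53null AML, -0.10 at an FDR of 0.945. Psmd2, the other scaffold of the base, was at 316, 295 and 306 CPM against 318, 327 and 327 CPM (log2 0.08, edgeR adjusted p 0.272), and the authors' deposited table had it 0.21 higher at 72 h (FDR 0.0105). The Psmd2 promoter printed above holds the gamma activated site match that Psmb8, which fell, also holds.

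Psmd7, the partner of the deubiquitinase subunit PSMD14, was at 120, 112 and 110 CPM in vehicle and 128, 131 and 127 CPM in CX-5461 libraries at 10 h (log2 0.17, edgeR adjusted p 0.0710), with no overlap. At 72 h the authors' deposited table gave 0.01 (FDR 0.914). Psmd6, a lid subunit, was at 102, 98.2 and 96.4 CPM against 110, 111 and 105 CPM (log2 0.13, edgeR adjusted p 0.102). Psmd6 had the highest value of the 19S genes in p53null AML (0.10, FDR 0.945) and was at 0.09 (FDR 0.425) at 72 h in the authors' deposited tables, so it was positive in all 3 comparisons and called in none. The lowest values of this class were those of Psmd8 at 10 h (log2 -0.10, edgeR adjusted p 0.332) and of Psmd13 at 72 h (0.01, FDR 0.960, in the authors' deposited table). Exons of Psmd1 share 9.67% of their bases with Gm21972 and those of Psmd13 7.64% with Sirt3.

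The 6 ATPases, the unfolding motor of the base, were centred on 0 at 10 h (median 0.00, 0 of 6 called). Psmc5 was at 119, 109 and 106 CPM in vehicle and 118, 121 and 119 CPM in CX-5461 libraries, with overlap (log2 0.10, edgeR adjusted p 0.248). At 72 h Psmc5 was the ATPase that rose (0.24, FDR 0.0115), and the median of the class was 0.16 in the authors' deposited table. Psmc2 (0.18, FDR 0.0510) and Psmc1 (0.18, FDR 0.0597) lay just outside the FDR threshold there, as Psmb2 (FDR 0.0466) and Psmg2 (FDR 0.0459) lay just inside. Psmc6 was the lowest of the ATPases at both times (log2 -0.04 at 10 h, edgeR adjusted p 0.637, and 0.03 at 72 h, FDR 0.806, in the authors' deposited table).

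Both measured immunoproteasome subunits fell at 72 h, when 15.1% of all genes fell. Psmb8 (ENSMUSG00000024338), which replaces PSMB5, fell by 0.43 on the log2 scale, or 1.35-fold, at an FDR of 2.09e-05, and Psmb10 (ENSMUSG00000031897), which replaces PSMB7, fell by 0.63, or 1.55-fold, at an FDR of 1.17e-05, in the authors' deposited table. These were the smallest FDR values among the members at 72 h. In p53null AML at 10 h the authors' deposited table gave 0.09 for Psmb8 and 0.08 for Psmb10, each at an FDR of 1.0.

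At 10 h in p53WT AML Psmb8 was at 75.0, 101 and 89.1 CPM in vehicle (88.3 ± 13.0, SD, n = 3) and at 74.4, 79.6 and 83.6 CPM in CX-5461 libraries (79.2 ± 4.60, SD, n = 3). The groups overlapped, since vehicle 1 was as low as CX-5461 library 1, and the log2 difference of -0.16 (SE 0.109, edgeR quasi-likelihood adjusted p 0.362) was within the spread. Psmb10 was at 68.8, 80.4 and 81.2 CPM in vehicle and at 59.7, 68.9 and 78.6 CPM in CX-5461 libraries (log2 -0.15, SE 0.112, edgeR adjusted p 0.383), likewise with overlap. Exons of Psmb8 share 11.4% of their bases with the antisense gene Gm20496.

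Set against its constitutive partner per kilobase of exon, Psmb8 was at 0.5004, 0.681 and 0.674 of the level of Psmb5 in the vehicle libraries and at 0.522, 0.527 and 0.552 in the CX-5461 libraries at 10 h. The mean ratio was 0.618 ± 0.102 (SD, n = 3) in vehicle and 0.534 ± 0.0160 (SD, n = 3) with CX-5461, and the ranges overlapped. The ratio of Psmb10 to Psmb7 was 0.429, 0.459 and 0.532 in vehicle and 0.393, 0.418 and 0.510 with CX-5461, also with overlap. From the mean levels over both arms in the authors' deposited tables, the Psmb8 to Psmb5 ratio was 0.574 in p53WT AML at 10 h, 0.737 in p53null AML and 0.358 in p53WT AML at 72 h. The ratio of Psmb10 to Psmb7 was 0.456, 0.519 and 0.290 in these deposited tables of the authors, in the same order. The tables were normalized separately, but a ratio of 2 genes within a table does not depend on its scale. On this measure the constitutive gene was above its replacement in each table, and the ratio was lowest at 72 h, a difference that was not tested. For Psmb8 that order rests on the exon lengths used, 1628 bases against 899 for Psmb5. By mean CPM in the authors' deposited tables, Psmb8 was above Psmb5 in p53WT AML at 10 h (83.6 against 80.4) and in p53null AML (148 against 111). It was below Psmb5 at 72 h (57.2 against 88.2).

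Of the 5 activator genes, 3 fell and 2 rose at 72 h. PA28 alpha beta, the interferon-inducible cap that opens the core, is encoded by Psme1 and Psme2, and both fell at 72 h, by 0.26 (FDR 0.0209) and 0.23 (FDR 0.0128) on the log2 scale in the authors' deposited table. Its copy Psme2b fell by 0.28 (FDR 0.0410) there, but it is so close to Psme2 in sequence that reads may be split between them, and its value is uncertain. At 10 h Psme1 was at 173, 227 and 196 CPM in vehicle and 155, 176 and 192 CPM in CX-5461 libraries (log2 -0.19, SE 0.116, edgeR adjusted p 0.307). Psme2 was at 102, 136 and 119 CPM against 92.8, 105 and 104 CPM (log2 -0.24, SE 0.107, edgeR adjusted p 0.171). Psme2b was at 21.2, 27.5 and 23.9 CPM against 18.8, 23.3 and 23.7 CPM (log2 -0.14, edgeR adjusted p 0.477). The groups overlapped in all 3 genes, and none passed.

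The activators outside the interferon pathway rose at 72 h. Psme3, the nuclear PA28 gamma, was 0.27 higher (FDR 0.00252) and Psme4, the nuclear PA200, 0.28 higher (FDR 0.0112) in the authors' deposited table. At 10 h Psme3 was at 252, 258 and 227 CPM in vehicle and 268, 271 and 262 CPM in CX-5461 libraries, without overlap (log2 0.12, SE 0.0581, edgeR adjusted p 0.210). Psme4 was at 104, 97.7 and 95.8 CPM against 102, 98.7 and 101 CPM (log2 0.02, edgeR adjusted p 0.823). In p53null AML Psme1 to Psme4 lay between -0.03 and 0.08 in the authors' deposited table. The inhibitor gene Psmf1, which encodes PI31, was at 42.2, 52.7 and 42.4 CPM against 39.1, 42.2 and 40.8 CPM at 10 h (log2 -0.17, edgeR adjusted p 0.274), and was not called at 72 h (0.14, FDR 0.316, in the authors' deposited table).

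**Figure D3:**
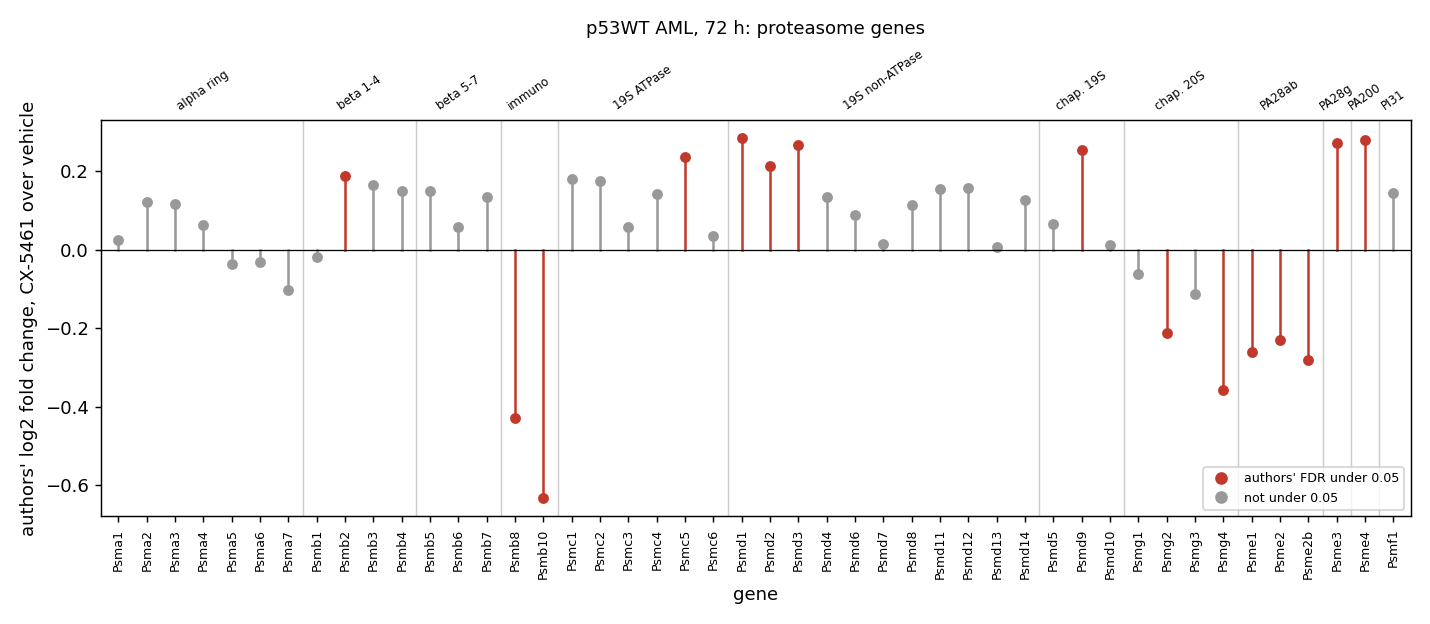
The authors' log2 fold change of CX-5461 over vehicle (vertical axis) in p53WT AML at 72 h for 46 members by class, red where the authors' FDR was under 0.05; Psmb11 and Psmc3ip are not plotted. Psmb10 (-0.63) and Psmb8 (-0.43) are the lowest, and Psmd1 and Psme4 (0.28 each) are the highest.

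The immunoproteasome and PA28 alpha beta genes also shared a pattern across libraries at 10 h. Library 1 was the lowest of its arm in both arms for all 5 of these genes, against 10.8% of all 12679 genes, 1 of 14 core genes and 0 of 17 regulatory genes. Relative to the vehicle mean, the 3 PA28 alpha beta genes had a median of -0.19, 0.20 and -0.01 on the log2 scale in vehicle 1, 2 and 3 and -0.35, -0.17 and -0.04 in CX-5461 libraries 1, 2 and 3. All 5 fold changes at 10 h were negative, with a median of -0.16 and none called. Libraries numbered 1 were also the deepest of their arms, with 48118513 counts in vehicle and 37244725 in CX-5461, and nothing in the labels ties the numbers to an animal or batch. The median of Psmb8 and Psmb10 at 10 h was -0.16 with all libraries, -0.25 without vehicle 1, -0.08 without vehicle 2 and -0.09 without CX-5461 library 1.

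The interferon and antigen-presentation list, of 12 genes beside the immunoproteasome, also had library 1 low at 10 h and mostly fell at 72 h. Library 1 was the lowest of both arms for 8 of these 12 genes at 10 h (66.7%). At 72 h 9 of 12 fell (75.0%, against 15.1% of all genes) and 0 rose in the authors' deposited table, with a median of -0.34. Among the transcription factors, Irf8, a regulator of the monocyte lineage, fell by 1.42 (FDR 8.93e-06), Irf9 by 0.89 (FDR 1.16e-23) and the MHC class I activator Nlrc5 by 0.69 (FDR 0.000505). Among genes of peptide loading, Tap1 fell by 0.45 (FDR 0.000662), Tapbp by 0.41 (FDR 2.91e-06), B2m by 0.28 (FDR 0.00643), Erap1 by 0.25 (FDR 0.0108) and Tap2 by 0.19 (FDR 0.0491) in the authors' deposited table. Irf1 (0.17, FDR 0.178), Calr and Pdia3 were not called there.

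At 10 h 0 of these 12 passed in p53WT AML, 8 were negative and the median log2 fold change was -0.13 (edgeR quasi-likelihood). By the FDR of the authors' deposited table of the same libraries 1 of 12 passed, Irf1. Irf1, an early interferon response factor, was at 59.8, 85.0 and 77.4 CPM in vehicle and 46.9, 52.0 and 57.8 CPM in CX-5461 libraries. Every CX-5461 library was lower, with a log2 difference of -0.50 (SE 0.138) that missed the threshold in the edgeR quasi-likelihood test (adjusted p 0.0639) and passed it in the authors' deposited table (FDR 0.0258). In p53null AML 10 of 12 were positive in the authors' deposited table, with a median of 0.09 and none called.

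**Figure D4:**
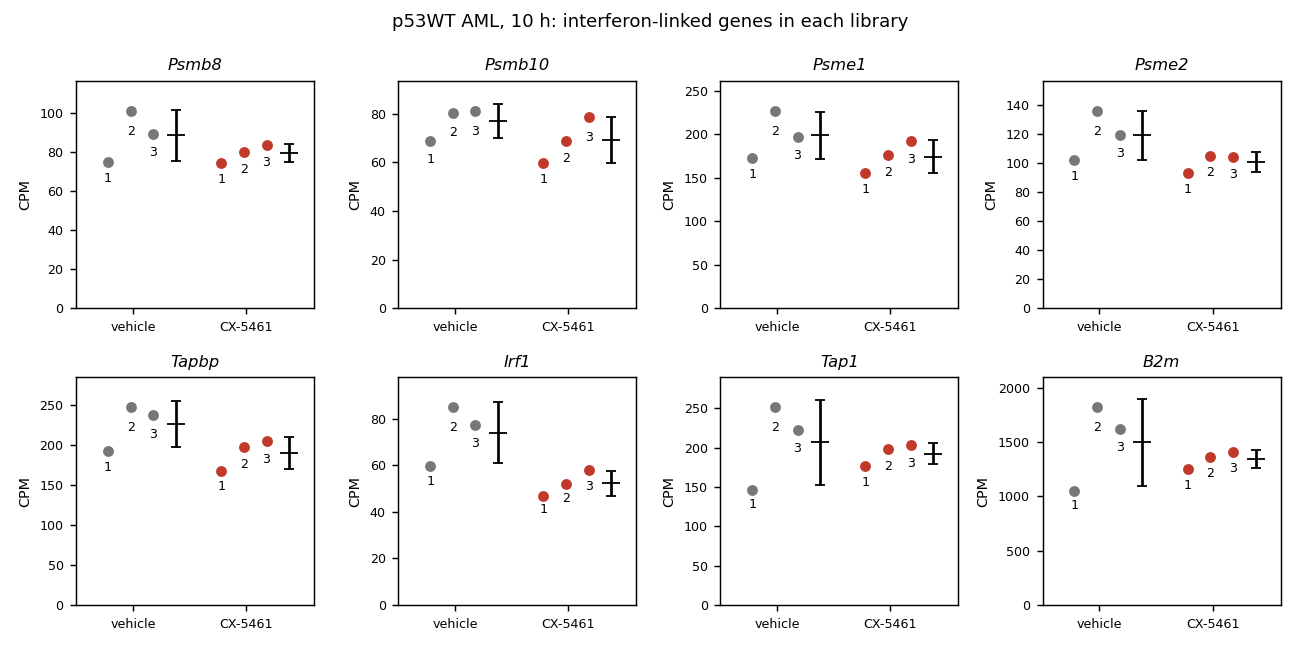
CPM (vertical axis, from 0) of 4 immunoproteasome and PA28 alpha beta genes and 4 genes of the interferon list in each library of p53WT AML at 10 h, with the library number under each point and the mean and SD of 3 libraries beside it. In all 8 panels library 1 is the lowest of its arm in both arms, and the arms overlap in all panels except that of Irf1. The 4 genes of the interferon list shown come from the 8 of its 12 genes that have this library order. Calr, Erap1, Pdia3 and Tap2 lack it and are not plotted.

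The assembly chaperones are described by the particle they build. The 4 chaperones of core assembly, Psmg1 to Psmg4, were all above vehicle in every CX-5461 library at 10 h in p53WT AML (median log2 0.17). That order held in 19.9% of all genes. Of the chaperones, 3 of 4 had an unadjusted p under 0.05, against 31.4% of all genes, and 0 of 4 an adjusted one (edgeR quasi-likelihood). At 72 h all 4 chaperones were negative in the authors' deposited table, with a median of -0.16, and 2 of 4 fell (against 15.1% of all genes). In p53null AML they lay between -0.02 and 0.04 in the authors' deposited table.

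Psmg4 (ENSMUSG00000071451), which acts with PSMG3 in alpha ring assembly, was at 18.7, 18.1 and 19.6 CPM in vehicle (18.8 ± 0.778, SD, n = 3) and 23.0, 23.8 and 21.3 CPM in CX-5461 libraries (22.7 ± 1.30, SD, n = 3). It had the highest fold change of the members at 10 h, 0.27 (SE 0.0745, edgeR quasi-likelihood adjusted p 0.0638), which missed the threshold, and it fell by 0.36 at 72 h (FDR 0.00214) in the authors' deposited table. Psmg3 was at 23.3, 21.7 and 22.9 CPM against 25.1, 26.6 and 24.6 CPM (log2 0.17, edgeR adjusted p 0.137), and was not called at 72 h (-0.11, FDR 0.439, in the authors' deposited table). Exons of Psmg3 share 26.8% of their bases with Gm26938, so its reads are uncertain.

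Psmg2, which pairs with PSMG1, was at 43.1, 37.7 and 41.4 CPM in vehicle and 48.7, 44.2 and 44.6 CPM in CX-5461 libraries (log2 0.17, edgeR adjusted p 0.157), and it fell by 0.21 at 72 h (FDR 0.0459) in the authors' deposited table. Psmg1 was at 43.3, 38.5 and 39.5 CPM against 44.3, 47.1 and 43.5 CPM (log2 0.15, edgeR adjusted p 0.168), and was not called at 72 h (-0.06, FDR 0.663, in the authors' deposited table). Thus the order of the groups was the same in all 4 chaperones at 10 h, with differences of 0.15 to 0.27 on the log2 scale, and no member of the set was called higher at either time.

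Of the 3 chaperones of the 19S base, Psmd10 (ENSMUSG00000031429) was the gene called at 10 h. It was at 35.7, 39.2 and 36.6 CPM in vehicle (37.2 ± 1.79, SD, n = 3) and 31.6, 30.1 and 29.8 CPM in CX-5461 libraries (30.5 ± 1.01, SD, n = 3). Every CX-5461 library was lower, by 0.29 on the log2 scale as a group difference (-0.29, SE 0.0619, edgeR quasi-likelihood, Benjamini-Hochberg adjusted p 0.0427). The call was lost in 8 of 14 alternative fits, at adjusted p-values of 0.0508 to 0.494 (without vehicle 3 it was 0.0512, and 0.171, 0.167 and 0.139 without CX-5461 library 1, 2 or 3), and the authors' deposited table of the same libraries gave an FDR of 0.175. In the authors' deposited tables Psmd10 was at 0.07 (FDR 1.0) in p53null AML and at 0.01 (FDR 0.947) at 72 h. Psmd5 was at 79.4, 68.5 and 68.6 CPM against 74.3, 75.5 and 76.9 CPM at 10 h (log2 0.06, edgeR adjusted p 0.552), and was not called at 72 h (0.06, FDR 0.606, in the authors' deposited table). Psmd9 was at 30.8, 33.0 and 26.0 CPM against 26.7, 27.2 and 27.7 CPM (log2 -0.14, edgeR adjusted p 0.349), and rose by 0.25 at 72 h (FDR 0.0275) in the authors' deposited table.

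Outside the classes, Psmc3ip was at 28.1, 27.3 and 25.7 CPM in vehicle and 30.6, 32.6 and 28.3 CPM in CX-5461 libraries at 10 h (log2 0.17, edgeR adjusted p 0.168). It fell by 0.33 at 72 h (FDR 0.00129), and Psmb11 was not called there (-0.41, FDR 0.267), in the authors' deposited table. Exons of Psmc3ip share 29.8% of their bases with Mlx.

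Genes that work with the proteasome under other names were read from 5 lists, the interferon list among them, with 45 genes measured in each table. At 10 h 0 of 45 passed in p53WT AML, against 8.10% of all genes (edgeR quasi-likelihood). At an unadjusted p under 0.05 in that edgeR test, 8 of 45 passed, against 31.4% of all genes. By the FDR of the authors' deposited table of these libraries 1 of 45 passed, Irf1, against 10.4% of all genes. In p53null AML 0 of 45 passed in the authors' deposited table (1 at an unadjusted p under 0.05, against 6.07% of all genes). At 72 h 11 of 45 rose (24.4%, against 16.1% of all genes) and 11 fell (24.4%, against 15.1%) in the authors' deposited table. Of the 11 that fell, 9 were in the interferon list, and the others were the small Maf gene Maff (-0.50, FDR 0.00417) and Rps27a (-0.20, FDR 0.0432), which encodes ubiquitin fused to a ribosomal protein.

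Among factors that control proteasome transcription, Nfe2l1, which encodes NRF1, was not called at 72 h (0.18, FDR 0.0716), while Ddi2, the protease that activates NRF1, rose by 0.30 (FDR 0.00109) in the authors' deposited table. Mafg, which encodes a binding partner of NRF1, rose by 0.25 (FDR 0.0304), so 2 of 7 of this list rose and 1 fell in the authors' deposited table. Nfe2l1 was at 108, 98.2 and 99.7 CPM in vehicle and 107, 115 and 108 CPM in CX-5461 libraries at 10 h, with overlap (log2 0.11, edgeR adjusted p 0.241). Of the 4 assembly factors and subunits under other names, Adrm1, the ubiquitin receptor RPN13 of the 19S particle, rose by 0.35 (FDR 0.000272) at 72 h. Akirin2, which takes proteasomes into the nucleus, rose by 0.26 (FDR 0.0165), in the authors' deposited table. Sem1 (-0.09, FDR 0.436) and Pomp (0.04, FDR 0.749) were not called there. At 10 h every CX-5461 library was below every vehicle library for Sem1 (log2 -0.16, edgeR adjusted p 0.199) and Akirin2 (log2 -0.15, edgeR adjusted p 0.143). Neither passed, and that order held in 19.1% of all genes. The groups overlapped for Adrm1 and Pomp.

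Of 16 proteasome-bound enzymes and receptors, 4 rose at 72 h (against 16.1% of all genes) and 0 fell in the authors' deposited table. They were Zfand2a (0.56, FDR 5.82e-07), a stress-inducible protein that binds the 19S particle, the unfoldase gene Vcp (0.40, FDR 2.24e-05), the deubiquitinase gene Usp14 (0.25, FDR 0.0230) and the ubiquitin ligase gene Ube3a (0.23, FDR 0.0328), in the authors' deposited table. Usp14 was near the threshold at 10 h as well, with 121, 111 and 111 CPM in vehicle and 137, 139 and 128 CPM in CX-5461 libraries (log2 0.23, SE 0.0586, edgeR adjusted p 0.0531). The shuttle receptor gene Rad23b was at 221, 197 and 211 CPM against 239, 240 and 245 CPM (log2 0.20, edgeR adjusted p 0.0581). Both were above vehicle in every CX-5461 library. Of 6 genes of ubiquitin and its activation, 3 rose at 72 h (against the same 16.1%), among them the activating enzyme gene Uba1 (0.28, FDR 0.000591), in the authors' deposited table.

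**Figure D5:**
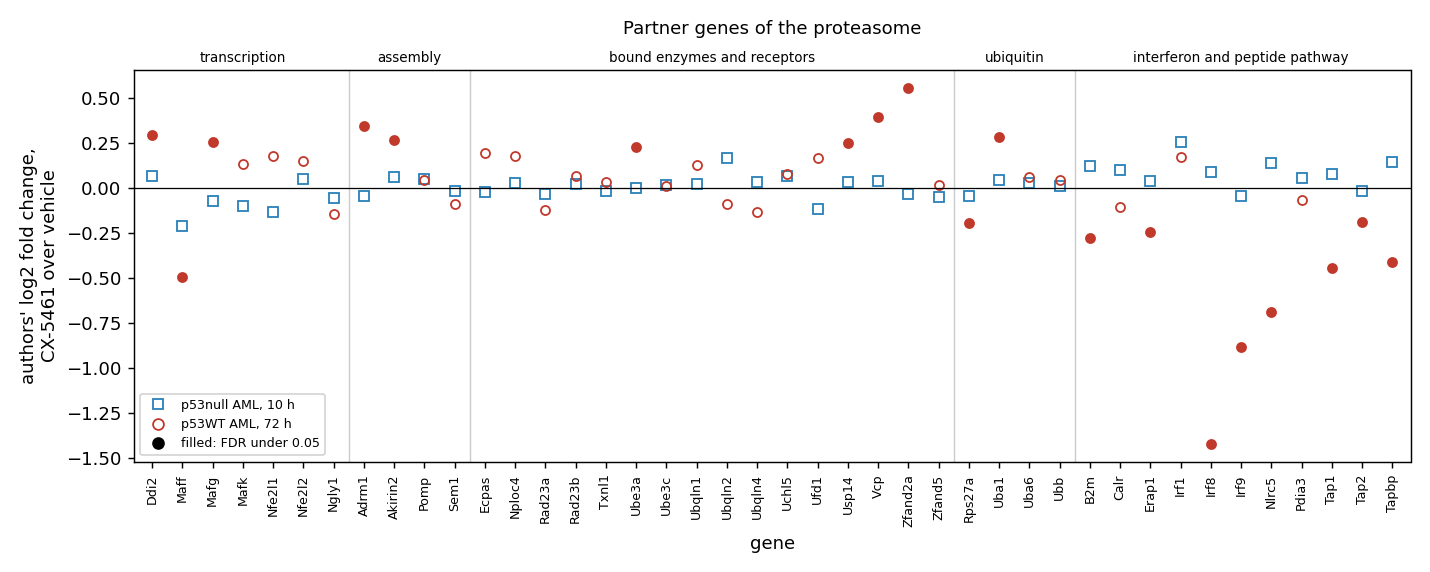
The authors' log2 fold change of CX-5461 over vehicle (vertical axis) for 42 of the 45 partner genes by list, with blue squares for p53null AML at 10 h and red circles for p53WT AML at 72 h, filled where the FDR was under 0.05. At 72 h Irf8 (-1.42) and Irf9 (-0.89) of the interferon list are the lowest, and 4 of 16 bound enzymes and receptors were called higher.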

How the data were processed

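RNA sequencing covered 18 samples in 6 groups of 3. The tools CASAVA 1.8.2, HTSeq, Bowtie and edgeR and the build mm9 are named per the submitters' processing notes; their order, settings and annotation are not given in the sources used here. The authors deposited, per the file headers, for each comparison a log2 fold change, a log2 mean CPM, a p-value and an FDR per gene, and raw counts for p53WT AML at 10 h alone. Genes of low level were absent from the tables.

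Ensembl identifiers were paired with symbols for 12237, 12366 and 12362 genes of the tables with 12679, 12861 and 12838. Counts were normalized by TMM and tested, two-sided, over all genes with the edgeR 4.0.16 quasi-likelihood test in R 4.3.3, treatment being the only term, with Benjamini-Hochberg adjustment and a threshold of 0.05. CPM values used TMM library sizes. Where a table held no counts, the planned fits were not run and the authors' FDR was used. Libraries held 21578685 to 48118513 counts, and each arm held 3. On simulated counts for these 6 libraries and 12679 genes, 0% of changed genes with a log2 size of 0.25, 44% at 0.5 and 80% at 1 were recovered.

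Columns of counts name the arm and a number from 1 to 3, and were assigned to groups only. Members, roles, partner lists and tests were chosen with earlier results of these data known. The genes named were the catalytic, immunoproteasome, activator, inhibitor and chaperone genes, and in each other class the smallest p, largest rise and largest fall per comparison, plus called partners. Some genes without overlap at 10 h and those next to the FDR threshold were also named after their values were seen. So were Psmd2, Psmd7, Psmc1, Psmb11, Psmc3ip, Nfe2l1, Irf1, Rad23b, Usp14, Sem1 and Pomp. Some called partners are counted but not reported here by name. Exon lengths and overlaps were taken by symbol from GENCODE M21 (GRCm38), a build other than that of the files, and no coordinates were converted. Alternatives used RLE factors, library size alone, robust estimation, a filter at 5 CPM in 3 libraries, an erythroid covariate, limma 3.58.1 voom, DESeq2 1.42.0, other thresholds, each library left out and a block by column number.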

Additional observations from a re-analysis of the deposited data

How the results depend on the processing

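The count of members called in p53WT AML at 10 h was 1 (Psmd10). It was 0 with library size alone, with the erythroid covariate, with limma-voom, at a threshold of 0.01 and by the authors' FDR; 3 with DESeq2 (Psmd3 and Psmd7 higher, Psmd10 lower); and 4 at a threshold of 0.1 (Psmg4 too). Leaving out 1 library gave 0 to 3: 3 without vehicle 1 (the same genes as DESeq2), 1 without vehicle 2, and 0 without vehicle 3 or any CX-5461 library. The cause was not tested. At 72 h 16 members passed, 7 at a threshold of 0.01 (3 higher, 4 lower) and 18 at 0.1; in p53null AML 0 passed at each threshold. The core median was -0.01 and moved to 0.16 with the erythroid covariate. The regulatory median was 0.05, and 0.0916 with library size alone, which raised the median of all genes to 0.04 from 0.00, and 0.12 with the covariate. The immunoproteasome median ran from -0.25 to -0.08. Among 448 alternative values of 32 named genes, none called changed sign; 29 uncalled ones did, in 16 genes.

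The count columns carry the numbers 1 to 3 and the titles other numbers, so a fit with the column number as a block was chosen after the data were seen. Deviations from the arm means correlated across genes at 0.30, 0.11 and 0.03 for libraries of the same number, and 5 of 6 libraries correlated best with their own number, a hint that does not establish pairing. With this block 0 members were called (Psmd10 at an edgeR adjusted p of 0.0527), while 1536 genes were, against 1027 without it. The core, regulatory and immunoproteasome medians were -0.01, 0.05 and -0.15, and the 5 immunoproteasome and PA28 alpha beta genes had adjusted p-values of 0.0592 to 0.272. Values at 72 h and in p53null AML rest on the authors' tables, without values per library.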
